A study of Sus scrofa with 6 samples.

Results

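The genes described here are the fibrillar collagen chains, the proteins that fold and trim them, and a receptor that clears collagen, in abdominal aorta of Wisconsin Miniature Swine (WMS). The members were taken by symbol from the deposited gene table: COL1A1, COL1A2, COL3A1, COL5A1, COL5A2, COL5A3, COL11A1, SERPINH1, PCOLCE and MRC2. All 10 symbols were present among the 22861 genes of the table, and all 10 passed the filter on low counts that left 11673 genes for testing. The MRC2 isoforms MRC2-001 and MRC2-002 were added from the isoform table. No measured value entered this choice, although it was made with earlier results of these data known.

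Aortas of the WMS FH line that carried atherosclerotic lesions (lesion group) were compared with lesion-free aortas of normal WMS (lesion-free group). FH stands for familial hypercholesterolaemia, an inherited excess of blood cholesterol. RNA of 11 animals in each group was combined into 3 pools, so each group has 3 libraries, replicates 1 to 3 for lesion and replicates 4 to 6 for lesion-free. Swine line and lesion status went together in every pool and cannot be told apart. The labels name neither age, sex nor diet, and do not say which animals entered which pool, so p-values measure the spread between pools only.

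Fibrillar collagens are the rope-like proteins that give an artery its tensile strength. Type I is built mostly from alpha-1 chains (COL1A1) with an alpha-2 chain (COL1A2), type III from COL3A1 alone, and types V and XI are minor partners inside the same fibrils that help to set their diameter. SERPINH1 (HSP47) holds newly made procollagen in shape in the endoplasmic reticulum, and PCOLCE speeds the removal of the C-terminal propeptide by the protease BMP1. MRC2 (Endo180, uPARAP) is a mannose receptor family protein that binds collagen fragments on fibroblast-like cells and carries them to lysosomes. In the artery wall smooth muscle cells and fibroblasts make most of the fibrillar collagen, and the fibrous cap of an atheroma is rich in it.

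The pools held 4650176 to 11442433 counts. Lesion replicate 1 was the shallowest, and across genes its log2 CPM had an r of 0.79 with both lesion replicate 2 and lesion replicate 3. Between replicates 2 and 3 the r was 0.91. Contractile smooth muscle markers were detected for all 9 matched genes, with a summed level of 32572 to 44858 CPM in lesion pools and 71848 to 83584 CPM in lesion-free pools. Of these 9 genes 0 were called higher and 2 lower, against 0.968% and 0.0771% of all genes. All lesion pools lay below all lesion-free pools in 5 of them, against 8.97% of all genes. In ACTG2, LDB3, SYNPO2 and CASQ2 the groups overlapped. CPM is the count scaled to a common library size after trimmed-mean (TMM) scaling. The summed level of 12 macrophage markers was 1671 to 3629 CPM in lesion pools and 179 to 326 CPM in lesion-free pools. Of the 11 macrophage genes tested, 11 were called higher, and of 11 fibroblast markers 0 were called in either direction, with 1555 to 2090 against 1999 to 2799 CPM in sum. In such bulk tissue fewer cells of a type and less RNA per cell cannot be told apart, and the part of these shifts in the collagen values was not tested.

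None of the 10 genes passed the test. By limma, adjusted over all 11673 genes, 0 of 10 were called higher and 0 lower at 0.05, with adjusted p from 0.257 (PCOLCE) to 0.895 (COL5A1). In the background 0.968% of all genes were called higher and 0.0771% lower. At an unadjusted p below 0.05 stood 3 of the 10 genes (COL3A1, COL5A2 and PCOLCE), where 10.6% of all genes stood. Over the alternatives the number at an unadjusted p below 0.05 ranged from 1 (without lesion-free replicate 5) to 5 (library total only). The log2 fold, lesion over lesion-free, was positive in 7 genes and negative in 3, with a median of 0.33 against -0.00 over all genes tested. Lesion pools lay above every lesion-free pool in 3 genes (COL1A2, COL3A1 and COL5A2), against 10.5% of all genes, and below every one in 1 gene (PCOLCE), against 8.97% of all genes. In the other 6 genes the groups overlapped.

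**Figure D1:**
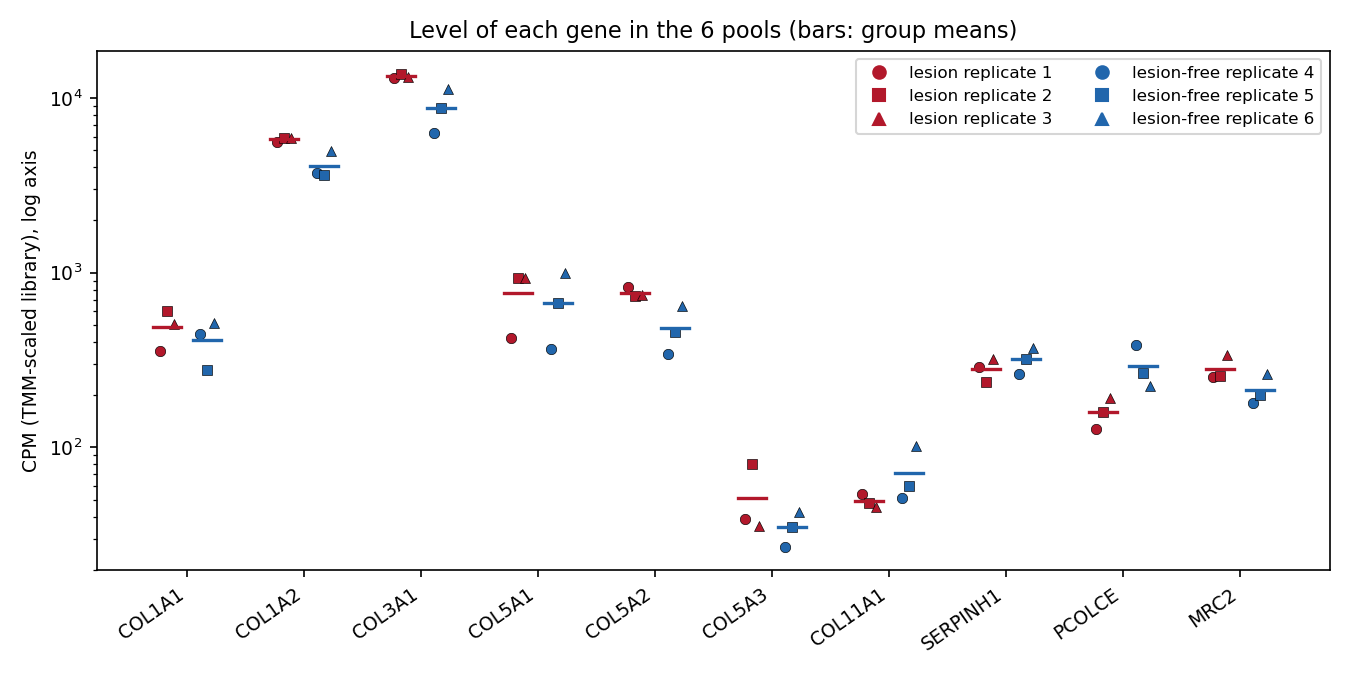
CPM (log axis) of the 10 genes in each of the 3 lesion pools (red) and 3 lesion-free pools (blue), with a bar at each group mean. The lesion pools of COL1A2, COL3A1 and COL5A2 sit close together and above all lesion-free pools, whereas those of PCOLCE sit below them.

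Type III collagen and the alpha-2 chain of type I had the most counts of the chains, and both were higher in every lesion pool. COL3A1 stood at 13055, 13614 and 13199 CPM in lesion replicates 1, 2 and 3, against 6287, 8787 and 11239 CPM in lesion-free replicates 4, 5 and 6. The groups did not overlap, and the lesion pools differed from one another far less than the lesion-free pools did. The means were 13289 ± 290.0 CPM in lesion and 8771 ± 2476 CPM in lesion-free ones (SD, n = 3 each), a 1.56-fold difference with a log2 fold of 0.64 (SE 0.30, 95% interval 0.0045 to 1.27, limma adjusted p = 0.467). COL1A2 stood at 5589, 5868 and 5861 CPM in lesion pools, against 3692, 3638 and 4959.6 CPM in lesion-free pools. Here too the groups stayed apart, with the lesion pools nearly level. The log2 fold of COL1A2 was 0.51 (SE 0.27, interval -0.073 to 1.09, limma adjusted p = 0.529). Neither passed the test adjusted over all genes. The interval of COL3A1 leaves out 0 and that of COL1A2 includes it, and they still allow a log2 fold of 1.27 for COL3A1 and 1.09 for COL1A2.

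The 7 collagen chains together took a larger part of each lesion library. They made up 2.27%, 2.43% and 2.04% of all counts in lesion replicates 1, 2 and 3, against 0.959%, 1.37% and 1.84% in lesion-free replicates 4, 5 and 6. Wilson 95% intervals were narrow, for example 2.03% to 2.05% in lesion replicate 3 and 1.83% to 1.84% in lesion-free replicate 6, and cover counting error only. The groups did not overlap, but lesion-free replicate 6 lay close to the lowest lesion pool. COL3A1 and COL1A2 supplied 89.1% to 91.6% of these counts in lesion pools and 87.6% to 89.2% in lesion-free pools, so the share follows these 2 genes. With a second COL1A1 entry, described below, the shares were 2.34%, 2.55% and 2.12% in lesion pools, against 0.980%, 1.41% and 1.90% in lesion-free pools. All these shares are of library totals without TMM scaling. Under that scaling the median log2 fold of all genes was 0.16. Levels of different chains are not compared here, because no transcript lengths were used.

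COL1A1, the main chain of type I, was recorded in a pair of gene entries, and these gave different values. The entry that carries the symbol (ENSSSCG00000017581) stood at 358, 604 and 506 CPM in lesion pools, against 443, 276 and 515 CPM in lesion-free pools. These groups overlapped, and the log2 fold was 0.26 (SE 0.31, interval -0.39 to 0.91, limma adjusted p = 0.797), or 0.48 without lesion replicate 1; it was -0.0070 when lesion-free replicate 5 was left out. A second entry, ENSSSCG00000029074, has no symbol in the gene table, but its counts are identical in all 6 pools to those of a transcript that the isoform table names COL1A1-201. It stood at 578, 1003 and 823 CPM in lesion pools, against 248, 405 and 620.1 CPM in lesion-free pools. Its log2 fold of 0.97 (SE 0.34, interval 0.24 to 1.70, limma adjusted p = 0.282) was the larger of the 2, with lesion replicate 1 just under lesion-free replicate 6.

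The second entry held 61.8%, 62.4% and 61.9% of the counts of both COL1A1 entries in lesion pools, against 35.9%, 59.5% and 54.6% in lesion-free replicates 4, 5 and 6. The lesion pools were nearly equal, and lesion-free replicate 4 stood well below all other pools. With both entries summed, an alternative added after the data were seen, COL1A1 stood at 937, 1607 and 1329 CPM in lesion pools, against 691, 682 and 1135 CPM in lesion-free pools. The log2 fold was then 0.63 (SE 0.30, limma adjusted p = 0.484). That is close to the 0.64 of COL3A1 and the 0.51 of COL1A2, while the entry with the symbol alone gives 0.26. The estimated counts do not show how reads were divided between the entries, so any value of COL1A1 alone is uncertain. The reference name table used here lists COL1A1 under a further identifier that is not among the genes tested.

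Of the type V chains, COL5A2 differed most between groups. This gene, which encodes the alpha-2 chain of type V, stood at 827, 729.8 and 748 CPM in lesion pools, against 342, 459 and 643 CPM in lesion-free pools. Every lesion pool was above every lesion-free pool. The means were 768 ± 51.8 CPM in lesion and 482 ± 152 CPM in lesion-free ones (SD, n = 3 each), a 1.65-fold difference with a log2 fold of 0.72 (SE 0.28, interval 0.11 to 1.33, limma adjusted p = 0.366). In the reference annotation (Sscrofa11.1) COL5A2 and COL3A1 are direct neighbours on chromosome 15.

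COL5A1, the alpha-1 chain that pairs with COL5A2 in type V fibrils, varied as widely within groups as between them. It stood at 424, 933 and 927 CPM in lesion pools, against 364, 667 and 991 CPM in lesion-free pools. Lesion replicate 1 was far below the other lesion pools, and the groups overlapped across their whole range. The log2 fold was 0.19 (SE 0.40, interval -0.67 to 1.05, limma adjusted p = 0.895) and became 0.59 without lesion replicate 1 (adjusted p = 0.689) and -0.18 without lesion-free replicate 4. Lesion replicate 1 thus had the lowest COL5A1 of the lesion pools while its COL5A2 was the highest of all 6 pools.

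The remaining minor chains were low and overlapped. COL5A3, the alpha-3 chain of type V, stood at 38.9, 79.8 and 35.5 CPM in lesion pools, against 27.0, 35.1 and 42.7 CPM in lesion-free pools. Its log2 fold of 0.51 (SE 0.36, limma adjusted p = 0.644) rested on lesion replicate 2, without which it was 0.098. COL11A1, the type XI chain best known from cartilage, was the only one of the 7 chains with a negative log2 fold, -0.49 (SE 0.31, interval -1.16 to 0.18, limma adjusted p = 0.608). It stood at 53.9, 47.9 and 45.6 CPM in lesion pools, against 51.2, 60.4 and 102 CPM in lesion-free pools. Lesion-free replicate 6 was the high pool, and without it the log2 fold was -0.19.

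**Figure D2:**
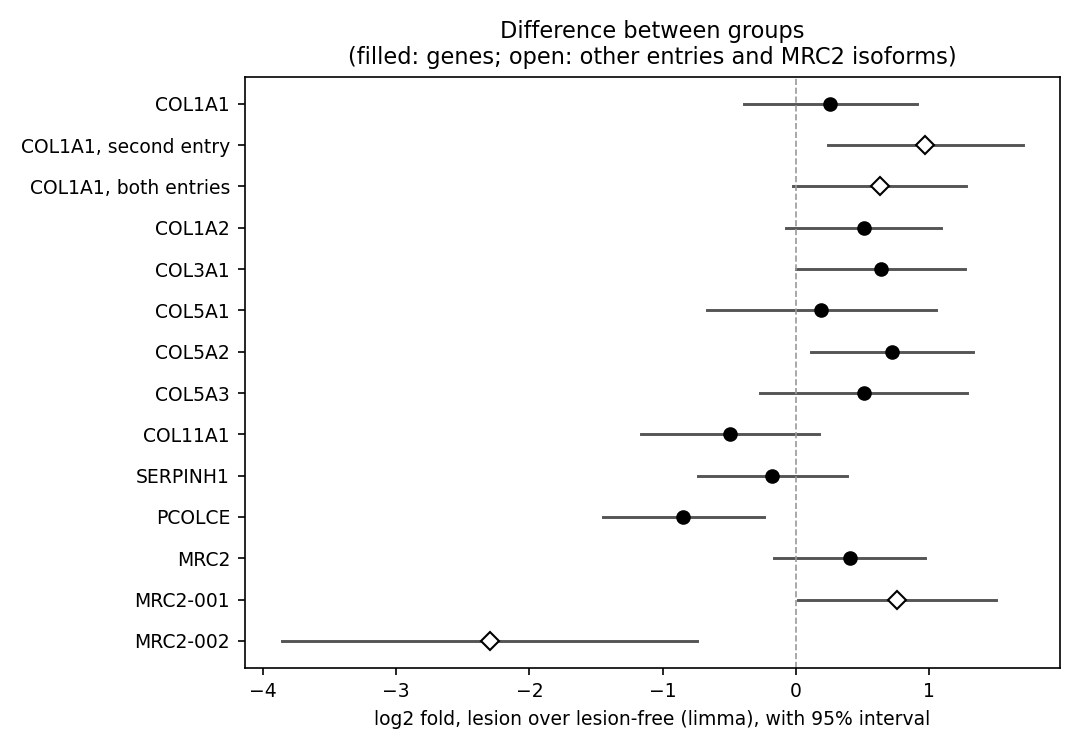
Log2 fold, lesion over lesion-free, from limma (x axis) with its 95% interval for the 10 genes (filled circles), and for the second COL1A1 entry, both COL1A1 entries summed and the MRC2 isoforms (open diamonds). The intervals of COL3A1, COL5A2, PCOLCE, MRC2-001, MRC2-002 and the second COL1A1 entry leave out 0, and the other intervals include it.

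SERPINH1 and PCOLCE, which act on procollagen, both had negative log2 folds. The chaperone SERPINH1 stood at 287, 236 and 321 CPM in lesion pools, against 264, 321 and 369.7 CPM in lesion-free pools. The groups overlapped, and the log2 fold was -0.18 (SE 0.26, interval -0.74 to 0.38, limma adjusted p = 0.850). PCOLCE, the enhancer of propeptide removal, stood at 128, 160.3 and 191 CPM in lesion pools, against 385, 266 and 224 CPM in lesion-free pools. All lesion pools were below all lesion-free pools. The means were 159.7 ± 31.4 CPM in lesion and 292 ± 83.5 CPM in lesion-free ones (SD, n = 3 each), 1.79-fold lower in lesion pools with a log2 fold of -0.84 (SE 0.28, interval -1.45 to -0.24, limma adjusted p = 0.257). That was the smallest adjusted p of the 10 genes. With 1 pool left out the adjusted p ranged from 0.215 (without lesion replicate 3) to 0.565 (without lesion-free replicate 5) and the log2 fold from -1.01 to -0.62.

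**Figure D3:**
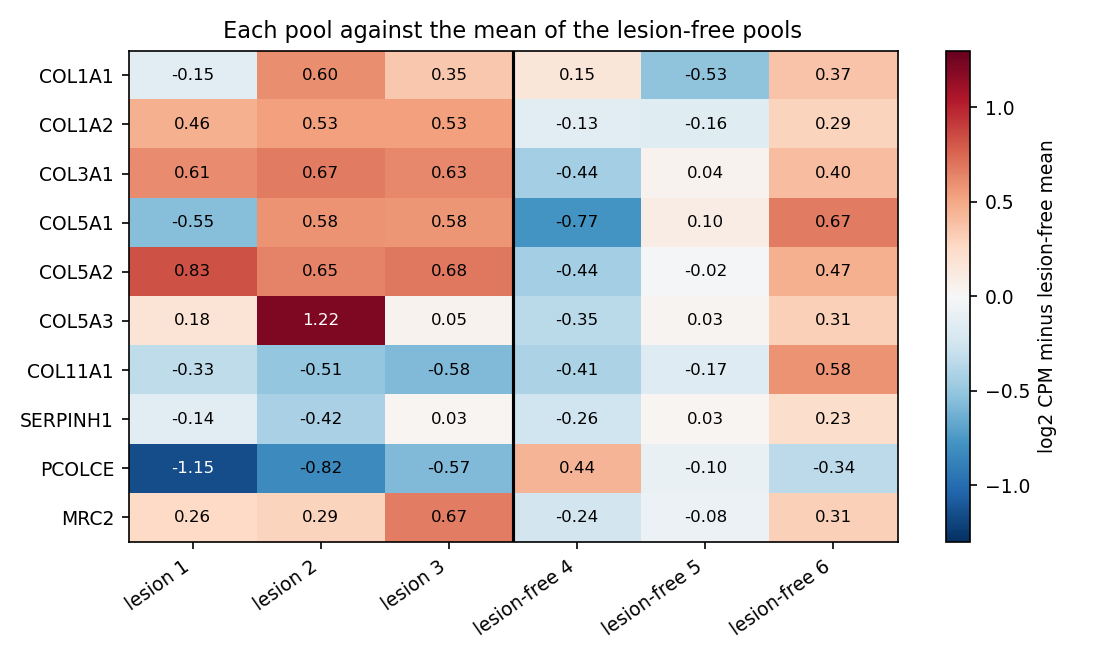
Log2 CPM of each gene in each pool minus the mean of the lesion-free pools (colour and number), with lesion pools left of the line and lesion-free pools right of it. COL1A2, COL3A1, COL5A2, COL5A3 and MRC2 were above the lesion-free mean in all 3 lesion pools, and COL11A1 and PCOLCE were below it in all 3, while in COL1A1 and COL5A1 lesion replicate 1 lay below it and replicates 2 and 3 above.

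Ratios of counts within a pool need no library scaling, and 8 of them were compared by a two-sided exact permutation test over pools, whose smallest possible p with 3 against 3 is 0.1. The ratio of PCOLCE to COL1A1 was lower in every lesion pool. Its log2 value was -1.48, -1.91 and -1.41 in lesion pools, against -0.20, -0.056 and -1.20 in lesion-free pools, a difference of -1.11 (exact permutation p = 0.1, Benjamini-Hochberg adjusted p = 0.8 over the 8 ratios). With both COL1A1 entries summed the difference was -1.48 (exact permutation p = 0.1, adjusted p = 0.4). In the other 7 ratios the groups overlapped with the symbol-bearing entry. SERPINH1 to COL1A1 differed by -0.44 (exact permutation p = 0.5) and, with both entries, by -0.81 with no overlap (exact permutation p = 0.1, adjusted p = 0.4).

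The balance of the chains themselves was not shown to differ. The log2 ratio of COL1A1 to COL1A2 was -3.59 ± 0.35 in lesion and -3.35 ± 0.34 in lesion-free pools (SD, n = 3 each, exact permutation p = 0.4), and the difference of -0.24 turned to 0.12 with both COL1A1 entries. COL3A1 to COL1A1 differed by 0.37 (exact permutation p = 0.4), or 0.0051 with both entries. COL5A1 to COL5A2, the chains of type V, was -0.10 ± 0.75 in lesion and 0.42 ± 0.29 in lesion-free pools (SD, n = 3 each, exact permutation p = 0.4). The difference of -0.52 was -0.086 without lesion replicate 1, whose log2 ratio was -0.96 where the other lesion pools had 0.35 and 0.31. Differences in COL5A3 to COL5A1 (0.28), COL5A1 to COL1A1 (-0.063) and MRC2 to COL1A1 (0.14) had exact permutation p of 0.6, 0.9 and 0.8. With both COL1A1 entries COL5A1 to COL1A1 differed by -0.43 (exact permutation p = 0.3) and MRC2 to COL1A1 by -0.23 (exact permutation p = 0.6). Without lesion replicate 1, and with the symbol-bearing entry, the differences were -0.058 for COL1A1 to COL1A2, 0.18 for COL3A1 to COL1A1, 0.051 for COL5A3 to COL5A1, 0.11 for COL5A1 to COL1A1 and 0.0026 for MRC2 to COL1A1.

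MRC2, the collagen uptake receptor, was not called as a gene or in either tested isoform, and the log2 folds of MRC2-001 and MRC2-002 had opposite signs. The gene stood at 253, 257 and 335 CPM in lesion pools, against 179, 200.4 and 262 CPM in lesion-free pools. Lesion-free replicate 6 lay within the lesion range, so the groups overlapped. The log2 fold was 0.40 (SE 0.27, interval -0.16 to 0.97, limma adjusted p = 0.623), 1.32-fold on the linear scale.

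MRC2-001 carried most of the counts, 1258, 2770 and 3613 in lesion pools, against 924, 1408 and 2392 in lesion-free pools. That is 240.3, 251 and 332 CPM in lesion pools, against 100.1, 168 and 244 CPM in lesion-free pools, with lesion replicate 1 below lesion-free replicate 6. MRC2-002 had 55, 110 and 50 counts in lesion pools, against 734, 263 and 187 in lesion-free pools. All lesion pools were below all lesion-free pools for MRC2-002, at 10.5, 9.96 and 4.60 CPM against 79.5, 31.4 and 19.1 CPM. The log2 folds were 0.76 for MRC2-001 (SE 0.34, limma adjusted p = 0.555) and -2.30 for MRC2-002 (SE 0.70, interval -3.86 to -0.74, limma adjusted p = 0.344), adjusted over 12666 isoforms. Without lesion-free replicate 4 the log2 fold of MRC2-001 was 0.42 and that of MRC2-002 was -1.73. Neither was called, and 0.45% of all tested isoforms were.

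MRC2-002 made up 4.19%, 3.82% and 1.37% of the counts of both isoforms in lesion pools, against 44.3%, 15.7% and 7.25% in lesion-free replicates 4, 5 and 6. The exact binomial 95% interval was 3.17% to 5.42% in lesion replicate 1, the highest lesion pool, and 6.28% to 8.32% in lesion-free replicate 6, the lowest lesion-free pool. These intervals cover counting error only, and pools of 1 group differed by more than that. The lesion pools were all below the lesion-free pools, which ranged widely. The means were 3.12 ± 1.53% in lesion and 22.4 ± 19.4% in lesion-free pools (SD, n = 3 each, exact permutation p = 0.1, the smallest this design can give). The log2 folds differed by -3.06 (002 minus 001), and limma's diffSplice test of unequal isoform change gave an adjusted p of 0.511 over 601 genes (unadjusted 0.00505). Of those 601 genes, 31 had an unadjusted p below 0.05, MRC2 ranked 5 by p, and 0 were called (0%). Because isoform counts are estimated from reads that isoforms share, the split itself carries an error that the deposited values do not show.

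**Figure D4:**
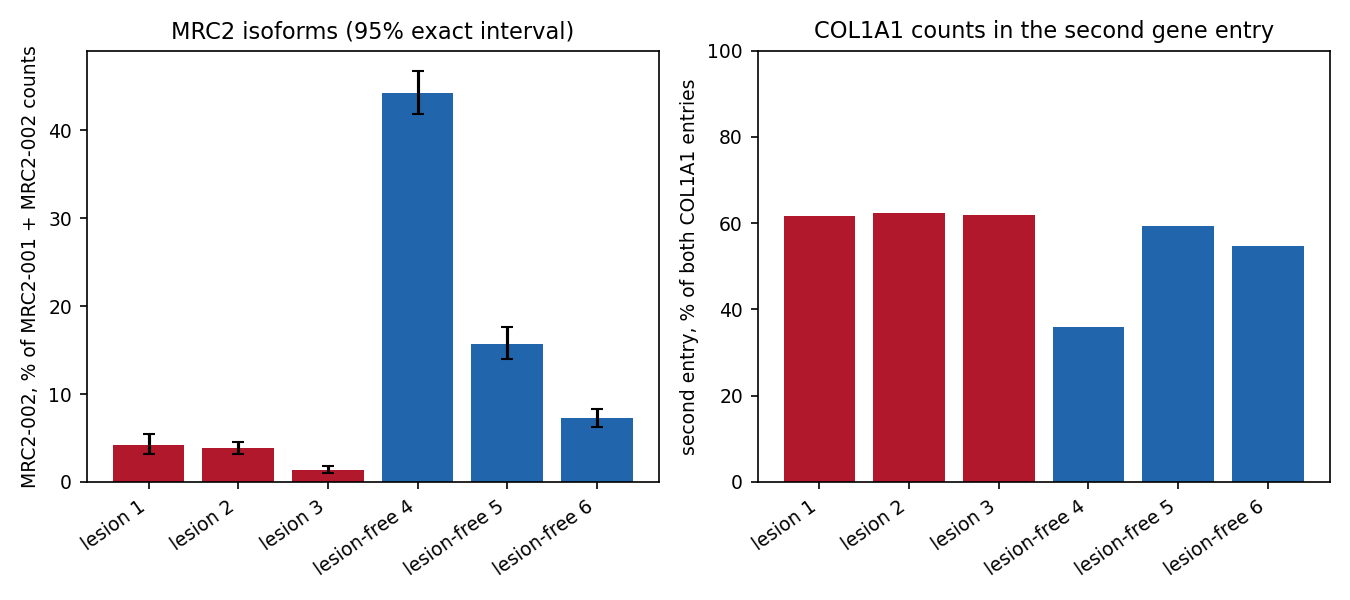
Left, MRC2-002 as a percentage of MRC2-001 plus MRC2-002 counts per pool, with exact 95% binomial intervals; right, the second COL1A1 entry as a percentage of both COL1A1 entries. Lesion pools (red) are at 1.37% to 4.19% for MRC2-002 and at 61.8% to 62.4% for COL1A1, and lesion-free replicate 4 stands apart from all other pools in both panels.

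Lesion-free replicate 4 was the extreme pool of its group for many of these values. It had the lowest COL3A1, COL5A1, COL5A2, COL5A3, COL11A1, SERPINH1 and MRC2 of the lesion-free pools, the highest PCOLCE and MRC2-002, and the lowest share in the second COL1A1 entry. Lesion-free replicate 6 had the highest COL1A1, COL1A2, COL3A1, COL5A1, COL5A2, COL5A3, COL11A1, SERPINH1 and MRC2 of its group and the lowest PCOLCE. In replicates 4, 5 and 6 the summed markers were 326, 235 and 179 CPM for macrophages, 2799, 2417 and 1999 CPM for fibroblasts, 382, 458 and 547 CPM for cartilage and bone cells and 83584, 71848 and 76453 CPM for contractile smooth muscle. The macrophage and fibroblast sums were thus highest in replicate 4 and lowest in replicate 6, and the cartilage and bone sum lowest in 4 and highest in 6. Single genes weighed heavily in the last 2 kinds of sum. The fibroblast marker DCN stood at 1349, 877 and 782 CPM, and COMP of the cartilage and bone list at 261, 343 and 388 CPM. PDGFRA (fibroblast) ran the opposite way at 0, 5.64 and 7.73 CPM, as did HAPLN1 (cartilage and bone) at 20.5, 19.8 and 13.3 CPM. Apart from PDGFRA and FBLN2, every tested fibroblast marker was higher in replicate 4 than in replicate 6. Of the tested cartilage and bone markers, COMP, CHAD and ACAN were lower in replicate 4 than in replicate 6, and HAPLN1 and SP7 were higher. Every tested macrophage marker except CSF1R was higher in replicate 4 than in replicate 6. Whether cell types differed between these pools was not tested. The part of these marker values in the values of the collagen genes and MRC2 was not tested. Apart from the COL1A1 entries, the gene count of each chain equalled that of 1 transcript in every pool. Further transcripts named for COL5A1 had 10 and 40 counts over all pools and were not part of its gene count. Isoform use is therefore described for MRC2 alone.

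Around these genes, 7 lists of the collagen pathway held 63 tested genes, of which 1 was called higher and 0 lower (1.59%, against 0.968% of all genes called higher and 0.0771% lower), with a median log2 fold of 0.21. Lesion pools lay above all lesion-free pools in 12 of the 63 genes, against 10.5% of all genes, and below them in 3, against 8.97% of all genes. In the remaining fibrillar chains, COL27A1 was the single gene tested, at 35.2, 41.6 and 30.8 CPM in lesion pools against 8.96, 17.9 and 26.4 CPM in lesion-free pools (log2 fold 1.13, or 0.70 without lesion-free replicate 4, limma adjusted p = 0.289). COL11A2 had 0 counts in all pools. Of 10 tested genes in the list of fibril-associated collagens, which also held types VI and VII, 0 were called, with a median log2 fold of 0.45. COL14A1, a fibril-associated chain, stood at 561, 599.7 and 606 CPM in lesion pools against 347, 361 and 411 CPM in lesion-free pools (log2 fold 0.66, limma adjusted p = 0.329). COL6A3, a chain of the beaded filaments of type VI, had a log2 fold of 0.70 with overlapping groups (limma adjusted p = 0.523), which was 0.28 without lesion-free replicate 4 and 1.15 without replicate 6.

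No gene of the synthesis, export or cleavage lists was called. Of 13 genes for chain modification and folding 0 were called in either direction, with a median log2 fold of 0.02. LEPREL1, a prolyl 3-hydroxylase of collagen, stood at 28.3, 21.0 and 22.5 CPM in lesion pools against 34.9, 48.7 and 45.0 CPM in lesion-free pools without overlap (log2 fold -0.87, limma adjusted p = 0.311), and FKBP14, a prolyl isomerase, had a log2 fold of 0.37. Of 7 genes for procollagen export 0 were called (median -0.12), with CREB3L1, a transcription factor of secretory cells, at -0.56 (-0.33 without lesion replicate 1) and TRAPPC2, a vesicle tethering subunit, at 0.46. Of 8 genes for propeptide cleavage and cross-linking 0 were called (median 0.08), with PCOLCE2, the relative of PCOLCE, at -0.45. ADAMTS14, a procollagen N-proteinase, was near the count floor at 4.04, 0.894 and 1.46 CPM in lesion pools and 0.324, 0 and 2.95 CPM in lesion-free pools.

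Collagen receptors were not called, and uptake and breakdown genes included the single call. Of 7 receptors 0 were called (median 0.46). DDR2, a receptor tyrosine kinase for fibrillar collagen, had a log2 fold of 1.28 with overlapping groups (limma adjusted p = 0.529), which was 0.32 without lesion-free replicate 4. ITGA11, an integrin chain that binds fibrillar collagen, had a log2 fold of 0.59 (adjusted p = 0.582), which ranged from 0.35 without lesion replicate 3 to 0.91 without lesion-free replicate 6. Of 17 uptake and breakdown genes 1 was called higher and 0 lower (median 0.18), and 8 had all lesion pools above all lesion-free pools (10.5% over all genes) and 2 all below (8.97% over all genes). CTSB, the lysosomal protease cathepsin B, stood at 1388, 1099 and 1247 CPM in lesion pools against 631, 462 and 559 CPM in lesion-free pools (log2 fold 1.18, SE 0.26, limma adjusted p = 0.0455). It lost the call with the limma trend method (adjusted p = 0.052) and without any 1 pool other than lesion-free replicate 4, with adjusted p up to 0.329 without lesion-free replicate 5, while the log2 fold stayed between 1.06 and 1.29. PRCP, a lysosomal prolyl carboxypeptidase, was at 61.0, 40.4 and 56.4 CPM in lesion pools against 22.6, 5.64 and 16.3 CPM in lesion-free pools and narrowly missed the call (log2 fold 1.96, limma adjusted p = 0.0506, from 0.0133 to 0.248 over the alternatives). Macrophages also express both, and their part in these values was not tested.

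From the same uptake list, proteins known to act with MRC2 at the cell surface were picked after their values were seen. MMP14, the membrane-bound collagenase, stood at 413, 339.8 and 460.4 CPM in lesion pools against 193, 272 and 299.8 CPM in lesion-free pools (log2 fold 0.68, limma adjusted p = 0.372). PLAU, urokinase, had 35.6, 22.3 and 30.2 CPM in lesion pools against 6.37, 14.6 and 13.2 CPM in lesion-free pools (log2 fold 1.39, limma adjusted p = 0.191), and its receptor PLAUR had a log2 fold of 0.45 (adjusted p = 0.695). They are 3 of the 8 list genes without overlap noted above, and none was called. Other genes of the list, likewise picked after their values were seen, went the other way without a call. MFGE8, which had the smallest p among them, had a log2 fold of -0.76 with all lesion pools lower (limma adjusted p = 0.376). MMP15, a further membrane-bound protease, had a log2 fold of -0.83 with all lesion pools lower. TIMP1, an inhibitor of such proteases, had a log2 fold of -0.85 with overlapping groups.

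Genes whose log2 CPM was most like that of COL1A1 and MRC2 were ranked by Pearson r over the 6 pools among 6191 genes with a symbol and a mean log2 CPM of at least 3. This is a description of few pools that share 2 groups and a scaling. For COL1A1 (entry with the symbol) they were ADAMTS15 (r = 0.990), TRIM27 (0.985), TCTN3 (0.984), SNRNP70 (0.975) and CRELD2 (0.963). For MRC2 they were GXYLT2 (r = 0.981), TEK (0.974), OSBPL3 (0.967), PRKCD (0.961) and ITGA11 (0.959). None of these 10 genes was called between the groups (limma adjusted p from 0.418 to 0.906), and no member was among them. Members still varied together in part. Between members the highest r was 0.984 (COL3A1 with COL5A2) and the lowest -0.954 (COL5A2 with PCOLCE). MRC2 had an r of 0.881 with COL1A2, 0.869 with COL3A1 and 0.857 with COL5A2. For COL1A1 (entry with the symbol) the r was 0.608 with COL1A2 and 0.370 with COL3A1.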

How the data were processed

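RNA sequencing of 6 pools of pig abdominal aorta, 3 lesion and 3 lesion-free, was used. The authors deposited raw estimated read counts per gene and per isoform, 1 column per pool; per the labels, column-extracted RNA went into a stranded total RNA library, and RSEM 1.3.0 and edgeR are named in the submitters' processing notes, in unstated roles. The aligner and build were not named. The values are whole numbers with commas between groups of digits, which were removed. With these commas the columns did not count as plain whole-number counts, so negative binomial count models were set aside.

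Genes were kept at 1.00 CPM or more (10 counts in a median library) in 3 pools or more, with 15 counts in all. Library sizes were adjusted by TMM (trimmed mean of M values). Tests used limma 3.58.1 in R 4.3.3 with voom weights and robust moderation, two-sided, adjusted by Benjamini-Hochberg over all genes or isoforms at 0.05. Log2 folds are lesion over lesion-free. A floor of 3 counts is 0.577 CPM in lesion replicate 1 and 0.268 to 0.36 CPM elsewhere, for counting error only. Pools of 1 group differed beyond sampling noise (chi-square per degree of freedom 22.7 to 97.7). The pipeline was tested on simulated data with changes larger than those of the 10 genes. That test does not show how well differences as small as theirs are found.

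Members, lists and ratios were chosen with earlier results of these data known. Named were all members and, of each pathway list, every called gene, or the 2 with the smallest p where fewer than 2 were called; other genes are said to be named after their values were seen. List genes without a symbol were named by identifier from a reference table, which gave 8 of the 10 members the same symbol. Of several entries with 1 name, the one with most counts was used for list genes. Members were taken by symbol, which for COL1A1 is the entry with fewer counts over all pools. Alternatives were other library scalings, no filter, sample quality weights, a trend fit on log2(CPM + 1) and leaving out each pool. No sequences are shown.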

Additional observations from a re-analysis of the deposited data

How the results depend on the processing

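With 3 pools a group, no difference in these genes passed the adjustment over all genes. None of the 10 genes was called under any of the 11 alternatives (2 other library scalings, no filter, sample quality weights, limma trend, and leaving out each pool). In 109 of 111 recomputed log2 folds the direction was kept. The exceptions came with a pool left out: COL1A1 ranged from -0.0070 (without lesion-free replicate 5) to 0.48, and COL5A1 from -0.18 (without lesion-free replicate 4) to 0.59. Scaling by the library total alone moved the median log2 fold of all genes to 0.16. Of the chain ratios with 1 pool left out, COL5A1 to COL1A1 ranged from -0.53 to 0.25 and MRC2 to COL1A1 from -0.057 to 0.37. With both COL1A1 entries summed (added after the data were seen), COL1A1 to COL1A2 was 0.12 and MRC2 to COL1A1 was -0.23. The MRC2 isoform difference (002 minus 001) ranged from -3.85 to -2.15 with 1 pool left out, and was not called. Over all genes, 113 higher and 9 lower calls became 171 and 17 without a filter, 213 and 40 with sample quality weights and 201 and 14 with limma trend. With 1 pool left out they ranged from 54 to 150 higher (63 without lesion-free replicate 5, 54 without 6) and from 3 to 36 lower (5 and 36 after dropping lesion replicate 1 or 3, and 15, 4 and 3 after dropping lesion-free replicate 4, 5 or 6). The cause was not tested.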
